A study of Mus musculus with 18 samples.

Results

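The 9 genes described here handle the haem and iron that macrophages recover from red blood cells: Hmox1, Spic, Slc40a1, Cd163, Blvrb, Slc11a1, Slc48a1, Fth1 and Hp. They were chosen by name, with earlier results of these data known, as were the gene lists set beside them. The genes were followed in whole bone marrow of female C3H mice on 18 one-colour arrays. All 9 have a probe among the 17178 genes with one, and all 9 are among the 11884 genes bright enough to test. Signal of each was well above background on 18 of 18 arrays, and none was saturated. The 6 groups were 1-week-old mice without irradiation (0 Gy), 6 h after 2 Gy and 24 h after 2 Gy of gamma rays, and 8-week-old mice under the same 3 conditions, with 3 arrays per group. The dose was given at 0.6 Gy per min. No genetic change or other agent is named for any group, and the series text gives 3 mice per time point. RNA came from the marrow as a whole, so fewer cells of a type and less RNA per cell cannot be told apart in any value below.

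Macrophages of the spleen, liver and bone marrow engulf worn-out red blood cells, open the haem of haemoglobin and return its iron to the blood for new erythroid cells. The transcription factor Spic is required for the red pulp and marrow macrophages that do this work, and free haem induces both Spic and Hmox1 by removing the repressor Bach1. In the marrow the same macrophages sit at the centre of erythroblastic islands. Cell death releases haem and haemoglobin, which haptoglobin (Hp) and its receptor Cd163 clear. Several of the 9 genes are not specific to macrophages, since erythroid cells also carry Blvrb and ferritin, and neutrophils make Hp.

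Promoter sequence was at hand for 5 of the 9 genes, from RefSeq on the GRCm38.p6 build, and 3 windows of 250 bases that end just before the transcription start are shown. They are those of Spic and Cd163, which responded to irradiation differently at the 2 ages, and of the second annotated start of Fth1, where no difference between the ages passed the test. Capitals mark matches to any of 6 motifs searched on both strands.
Spic, minus strand of chr10:88683024-88683273: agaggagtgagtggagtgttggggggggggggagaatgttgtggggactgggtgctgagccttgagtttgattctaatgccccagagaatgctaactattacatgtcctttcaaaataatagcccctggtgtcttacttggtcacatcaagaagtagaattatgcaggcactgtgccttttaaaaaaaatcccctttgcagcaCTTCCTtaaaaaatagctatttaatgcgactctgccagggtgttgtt
Cd163, plus strand of chr6:124304401-124304650: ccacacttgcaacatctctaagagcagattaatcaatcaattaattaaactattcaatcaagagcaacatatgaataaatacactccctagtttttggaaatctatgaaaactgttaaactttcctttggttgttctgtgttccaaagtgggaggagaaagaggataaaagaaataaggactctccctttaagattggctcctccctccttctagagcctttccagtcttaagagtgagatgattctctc
Fth1, plus strand of chr19:9982396-9982645: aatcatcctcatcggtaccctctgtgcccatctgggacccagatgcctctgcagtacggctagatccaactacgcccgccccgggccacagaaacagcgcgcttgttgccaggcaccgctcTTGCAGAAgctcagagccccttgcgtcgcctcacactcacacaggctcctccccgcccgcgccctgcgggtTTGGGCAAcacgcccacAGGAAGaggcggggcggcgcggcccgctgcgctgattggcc
The Spic window holds 1 match, the ETS motif AGGAAG read on the opposite strand as CTTCCT, 47 bases before the start. ETS factors are the family to which Spic itself belongs. That motif stands in 29.485% of 32851 mouse promoter windows of the same length, and its letters were chosen after the Spic sequence had been seen. The Fth1 window holds an AGGAAG match 41 bases before the start and 2 matches to the C/EBP site TTGCNNAA, at 129 and 58 bases, a motif found in 9.564% of all windows. No motif searched matched the Cd163 window in its exact letters. Shorter strings within AGGAAG, such as GGAA, which the Cd163 window holds, were not searched. Since AGGAAG was chosen with the Spic sequence in view, its absence there sets up no contrast between Spic and Cd163. The antioxidant response core TGACNNNGC, which Nrf2 and Bach1 bind, matched none of the windows of these 5 genes, against 10.161% of all windows. The other motifs searched, without a match in these genes, were the AP-1 site TGANTCA (6.749% of windows), the GATA site AGATAA (9.988%) and the E-box CACGTG (6.021%).

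Levels are given as log2 signal, the scanner software's background-subtracted brightness on the log2 scale minus the same array's 75th percentile, so 0 lies at that percentile. In raw intensity that percentile was 637.7 to 727.6 on control arrays and 461.5 to 574.1 on irradiated arrays. The ranges do not overlap, so every difference between irradiated and control arrays includes this shift. Differences between group means carry the standard error (SE) of a limma fit over all arrays, and a gene was called when its p-value, adjusted by Benjamini and Hochberg over the 11884 genes, was under 0.05. Both time points of an age were set against the same 3 control arrays. Between 51.0% and 62.1% of probes were well above background on an array. Within groups, arrays matched each other over genes at r = 0.992 to 0.997, except that 1-week control replicate 2 went down to 0.978. That array carries muscle and cartilage transcripts. The log2 of its summed signal over the 6 of 8 skeletal muscle markers that were tested was 8.82, against 2.23 and 2.81 in the other 1-week controls, and over the 4 of 7 cartilage markers tested it was 5.81, against -1.12 and -0.15. Without it, 5 listed genes in place of 6 were called 6 h after irradiation at 1 week, 8 at 24 h, 7 between the ages in controls, and 5 and 3 in the differences between the ages at 6 h and 24 h. The calls lost were Cd163 at 6 h (-0.41, adjusted p = 0.066) and the 24 h age difference of Hmox1 (0.32, adjusted p = 0.0604).

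At 6 h after irradiation the calls of the listed genes went both ways at 1 week and were all rises at 8 weeks. At 1 week 4 of 9 rose and 2 fell, in a comparison where 51.8% of all tested genes were called (25.5% higher and 26.3% lower). At 8 weeks 9 of 9 rose, where 46% of tested genes were called (23.9% higher, 22.1% lower). These 6 h counts depend on single arrays. Leaving out each array in turn gave 4 to 7 listed genes called at 1 week and 6 to 9 at 8 weeks. The falls at 1 week, of Spic and Cd163, each lost their call in several settings given below. By 24 h 8 of 9 had risen at each age, where 36% of tested genes were called at 1 week (18.4% higher, 17.6% lower) and 57.8% at 8 weeks (38.3% higher, 19.5% lower). Blvrb was the exception at both ages. Since the listed genes were chosen with earlier results of these data known, these counts beside the shares are not an independent test. The median difference of the 9 genes was 0.22, 0.56, 0.40 and 0.77 in these 4 comparisons in turn (6 h and 24 h at 1 week, then at 8 weeks), beside medians over all tested genes of 0.00, -0.01, 0.02 and 0.12. On the slides that held both groups, every value of a called gene had the sign of the whole comparison, in 6 of 6, 16 of 16, 9 of 9 and 8 of 8 values in the same order of comparisons. Each value sets 1 array against 1 array. The genes share these arrays, which also entered the whole comparison, so the agreement is not a separate test.

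**Figure D1:**
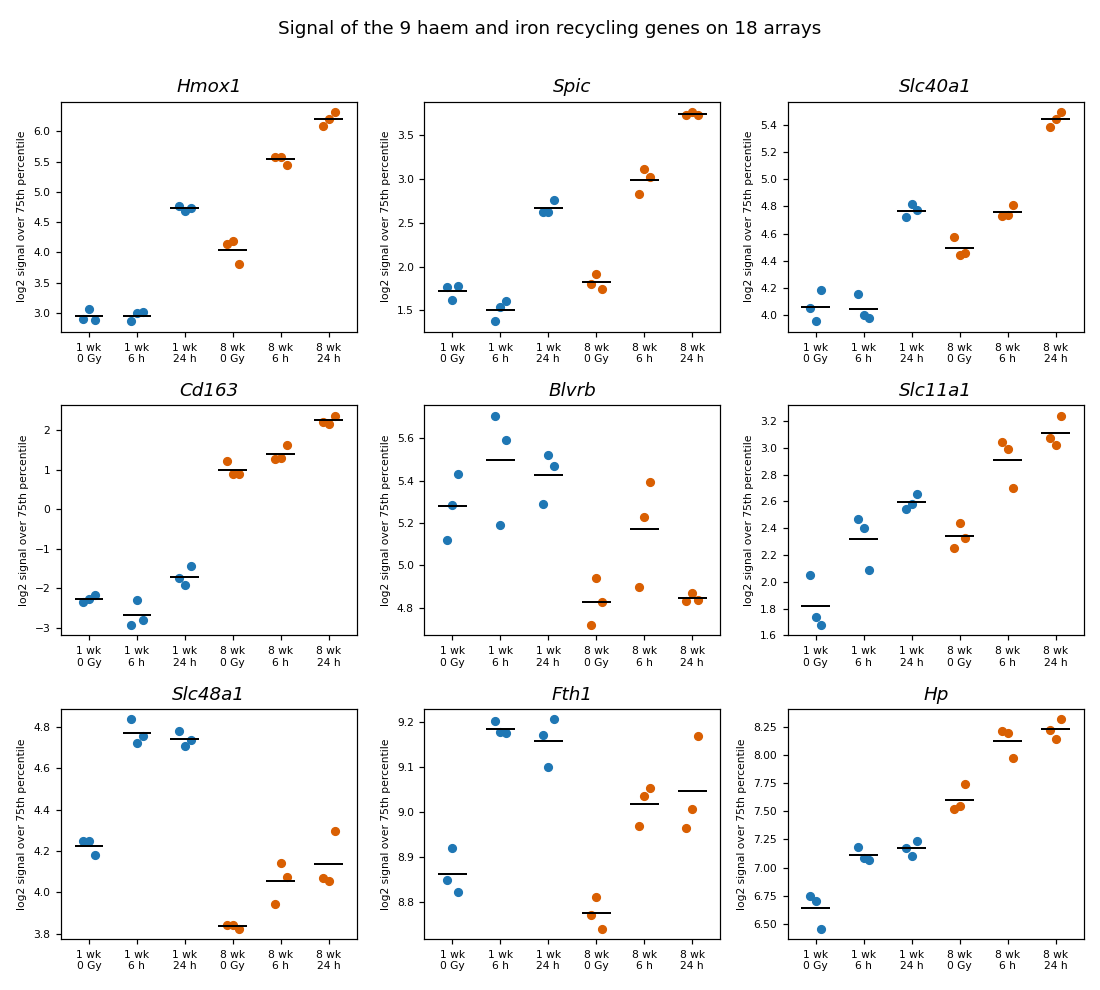
Log2 signal over the array's 75th percentile (vertical axis, a separate scale per gene) of the 9 genes in the 6 groups; each point is 1 array, bars are group means, and blue is 1 week and orange 8 weeks. Hmox1, Spic and Slc40a1 are highest in all 3 arrays 24 h after irradiation at 8 weeks, and Cd163 lies at -2.92 to -1.44 at 1 week and at 0.88 to 2.36 at 8 weeks.

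Hmox1 encodes haem oxygenase 1, which opens haem into iron, carbon monoxide and biliverdin. Its log2 signal was 2.89, 3.06 and 2.89 in the 1-week controls, 2.86, 3.0 and 3.01 at 6 h, and 4.77, 4.69 and 4.74 at 24 h. At 1 week the 6 h arrays lay among the controls and every 24 h array lay far above both. In 8-week mice it was 4.14, 4.19 and 3.81 without irradiation, 5.58, 5.58 and 5.44 at 6 h, and 6.08, 6.21 and 6.32 at 24 h. None of these 3 groups overlapped another, and all lay above the 1-week controls. At 1 week the 6 h difference was 0.01 ± 0.09 (SE, n = 3 per group, adjusted p = 0.941), with a 95% interval of -0.18 to 0.20. The rise at 24 h was 1.78 ± 0.09, a 3.44-fold increase (adjusted p = 5.3e-10). At 8 weeks it rose 2.81-fold by 6 h (1.49 ± 0.09, adjusted p = 2.89e-09) and 4.46-fold by 24 h (2.16 ± 0.09, adjusted p = 1.56e-11). Between 6 h and 24 h Hmox1 rose at both ages, by 1.77 at 1 week and by 0.67 at 8 weeks.

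Spic, the ETS-family regulator of iron-recycling macrophages, followed a similar course. In the 1-week groups its log2 signal was 1.77, 1.61 and 1.78 in controls, 1.38, 1.54 and 1.61 at 6 h, and 2.63, 2.62 and 2.75 at 24 h. The 6 h arrays lay at or below the lowest control and the 24 h arrays above all others. In the 8-week groups the values were 1.81, 1.92 and 1.74, then 2.82, 3.11 and 3.02, then 3.72, 3.76 and 3.73, again with no overlap between groups. Spic fell by 0.21 on the log2 scale at 6 h in 1-week mice (SE 0.08, adjusted p = 0.0307). It then stood 0.95 ± 0.08 above control at 24 h (adjusted p = 1.58e-07). At 8 weeks it rose by 1.16 ± 0.08 at 6 h (adjusted p = 1.49e-08) and by 1.91 ± 0.08 at 24 h (3.77-fold, adjusted p = 1.59e-11). The early fall is a small one. It was no longer called without 1-week control replicate 1 (-0.19), control replicate 3 (-0.19) or 6 h replicate 1 (-0.15), nor with a model-based background correction (-0.20, adjusted p = 0.0692). A second, dimmer probe of Spic gave -0.24, 0.94, 1.22 and 1.98 in these 4 comparisons, each called.

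Blvrb, which reduces biliverdin and flavins and is abundant in red cell precursors, was the only listed gene without a called rise at 24 h at either age. Its log2 signal was 5.12, 5.28 and 5.43 in 1-week controls, 5.71, 5.19 and 5.59 at 6 h, and 5.29, 5.52 and 5.47 at 24 h. The 3 groups at 1 week overlap. At 8 weeks it was 4.72, 4.94 and 4.83 in controls, 4.89, 5.23 and 5.39 at 6 h, and 4.83, 4.87 and 4.84 at 24 h. There the 6 h arrays spread widely and their lowest lies within the controls. Blvrb rose at 6 h in 8-week mice by 0.34 ± 0.13 (adjusted p = 0.0383) and fell back by 24 h (-0.33 against 6 h, adjusted p = 0.0453). The 6 h rise was not called without 8-week control replicate 1 (0.29) or 3 (0.34), 8-week 6 h replicate 2 (0.32) or 3 (0.23), or in a fit that blocks on slide (0.36, adjusted p = 0.0765). Nor was it called with a model-based background correction (0.26). The same held without the filter on dim genes, without the intensity trend and on the authors' deposited matrix (0.34 each). The later fall lost its call in 13 settings, among them without 8-week 6 h replicate 3 (-0.22) or 2 (-0.30), without any 1 of the 8-week 24 h arrays (-0.34 to -0.32), without 1-week 24 h replicate 2 or 3 or 8-week control replicate 3 (-0.33 each), and with slide as a block (-0.30). At 1 week the differences were 0.22 (adjusted p = 0.169) and 0.15 (adjusted p = 0.405), with 95% intervals of -0.06 to 0.49 and -0.13 to 0.42. Without 1-week 6 h replicate 2, the first was 0.37 and was called (adjusted p = 0.0203).

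Slc40a1 is ferroportin, the channel through which macrophages return iron to the blood. It read 4.05, 3.95 and 4.18 in 1-week controls, 4.15, 4.0 and 3.97 at 6 h, and 4.72, 4.81 and 4.77 at 24 h. The 1-week 6 h arrays lie within the controls and the 24 h arrays clear of them. In 8-week mice it read 4.58, 4.44 and 4.45 in controls, 4.73, 4.73 and 4.81 at 6 h, and 5.38, 5.45 and 5.50 at 24 h, without overlap. At 24 h ferroportin rose by 0.71 ± 0.06 at 1 week (1.63-fold, adjusted p = 3.71e-07) and by 0.95 ± 0.06 at 8 weeks (1.93-fold, adjusted p = 4.75e-09). The 6 h rise at 8 weeks was 0.27 ± 0.06 (adjusted p = 0.00319), while the 6 h difference at 1 week was -0.02 (adjusted p = 0.831, 95% interval -0.15 to 0.12).

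Fth1, the ferritin heavy chain that stores iron in the cell, rose by a small amount in all 4 irradiated groups. Values were 8.85, 8.92 and 8.82 in 1-week controls and lay between 9.10 and 9.21 on the 6 irradiated 1-week arrays. At 8 weeks controls read 8.77, 8.81 and 8.74, and the 6 irradiated arrays lay between 8.97 and 9.17. No irradiated array overlapped the controls of its age. The rises were 0.32, 0.30, 0.24 and 0.27 (SE 0.05 each), with adjusted p from 1.19e-04 to 0.00179. These small rises depend on the scaling, since quantile scaling took 3 of them below the threshold, with 0.10 at both times at 1 week and 0.01 at 24 h at 8 weeks. Before the percentile was subtracted, raw intensity was 312522 to 329285 in 1-week controls and 271754 to 332206 on the irradiated arrays of that age. At 8 weeks it was 274413 to 312265 and 271496 to 299402. Raw intensity thus overlapped at both ages, and the rises rest on the lower percentile of the irradiated arrays.

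Cd163 is the macrophage receptor for haemoglobin bound to haptoglobin. Its log2 signal was -2.34, -2.26 and -2.17 in 1-week controls, -2.92, -2.28 and -2.79 at 6 h, and -1.75, -1.92 and -1.44 at 24 h. In 8-week mice it was 1.20, 0.89 and 0.88 in controls, 1.26, 1.29 and 1.62 at 6 h, and 2.21, 2.14 and 2.36 at 24 h. Every 8-week array lies above every 1-week array, and in both ages the 24 h arrays are highest. Cd163 rose at 24 h by 0.56 ± 0.15 at 1 week (adjusted p = 0.0098) and by 1.25 ± 0.15 at 8 weeks (2.38-fold, adjusted p = 4.38e-06). At 6 h it fell by 0.40 on the log2 scale at 1 week (SE 0.15, adjusted p = 0.0373) and rose by 0.40 ± 0.15 at 8 weeks (adjusted p = 0.0436). Both 6 h calls are close to the threshold. The 1-week fall was not called without control replicate 2 (-0.41) or 3 (-0.36), without 6 h replicate 1 (-0.28) or 3 (-0.34), or with a model-based background correction (-0.11, adjusted p = 0.44). The 8-week rise was not called without 8-week control replicate 2 (0.35) or 3 (0.34), without 6 h replicate 2 (0.45) or 3 (0.29), or without 1-week 24 h replicate 1 or 8-week 24 h replicate 1 or 2, where it remained 0.40. It was also lost without the filter on dim genes, without the intensity trend and on the authors' deposited matrix (0.40 each). The 24 h rise at 1 week was 0.43 and not called without 24 h replicate 3 (adjusted p = 0.0629).

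Hp encodes haptoglobin, the plasma protein that binds free haemoglobin. Its log2 signal was 6.75, 6.70 and 6.46 in 1-week controls and lay between 7.07 and 7.24 on the irradiated arrays of that age. At 8 weeks it was 7.52, 7.55 and 7.74 in controls and between 7.97 and 8.32 after irradiation. Irradiated arrays lay above the controls of their own age in every case. It rose by 0.47, 0.53, 0.53 and 0.63 (SE 0.08 each; adjusted p from 1.15e-05 to 2.0e-04). Between 6 h and 24 h it differed by 0.06 at 1 week (adjusted p = 0.625) and by 0.10 at 8 weeks (adjusted p = 0.351). Of 6 hepatocyte markers, 5 had a probe and only Fgb, a fibrinogen chain, was bright enough to test. Fgb differed from control by 0.75 (adjusted p = 0.0519) and 0.49 (adjusted p = 0.231) at 1 week, and rose by 0.82 (adjusted p = 0.0388) and 1.37 (adjusted p = 0.00122) at 8 weeks. Without 1-week control replicate 2 its 6 h difference at 1 week was 0.88 and was called. In controls Fgb differed by -0.66 between the ages (adjusted p = 0.0691), where Hp was higher at 8 weeks. The part of hepatocyte RNA in the values of Hp was not tested.

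Slc11a1 (Nramp1) moves iron and manganese out of the phagosome. It read 2.05, 1.74 and 1.68 in 1-week controls, 2.47, 2.40 and 2.09 at 6 h, and 2.54, 2.58 and 2.66 at 24 h. It read 2.25, 2.44 and 2.33 in 8-week controls, 3.04, 2.99 and 2.70 at 6 h, and 3.07, 3.02 and 3.24 at 24 h. At both ages all irradiated arrays exceed the controls. The rises were 0.50 ± 0.11 and 0.77 ± 0.11 at 1 week and 0.57 ± 0.11 and 0.77 ± 0.11 at 8 weeks (adjusted p from 2.52e-05 to 0.00151).

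Slc48a1 (Hrg1) carries haem from the phagolysosome into the cytosol. On its brighter probe the log2 signal was 4.25, 4.25 and 4.18 in 1-week controls, 4.84, 4.72 and 4.76 at 6 h, and 4.78, 4.71 and 4.74 at 24 h. At 8 weeks that probe read 3.84, 3.84 and 3.83 in controls, 3.94, 4.14 and 4.08 at 6 h, and 4.07, 4.05 and 4.29 at 24 h. Irradiated arrays are above controls at each age, and the 8-week controls are below the 1-week controls. It rose by 0.55, 0.51, 0.22 and 0.30 in the 4 comparisons (SE 0.06 each, adjusted p from 3.3e-06 to 0.0108). At 8 weeks the raw intensity of this probe was 9087 to 9971 in controls and 8816 to 9600 on irradiated arrays. Its 8-week rises thus rest on the lower percentile of the irradiated arrays. The 8-week 6 h rise was not called without 8-week 6 h replicate 2 (0.17) or with a model-based background correction (0.17). The dimmer probe rose in all 4 comparisons too, by 0.54, 0.59, 0.50 and 0.72 (adjusted p from 2.5e-06 to 2.11e-04). The probes part over age. The brighter one was lower at 8 weeks than at 1 week in controls (-0.39, adjusted p = 5.3e-05) and the dimmer one higher (0.28, adjusted p = 0.00756), so no direction with age is given for Slc48a1.

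**Figure D2:**
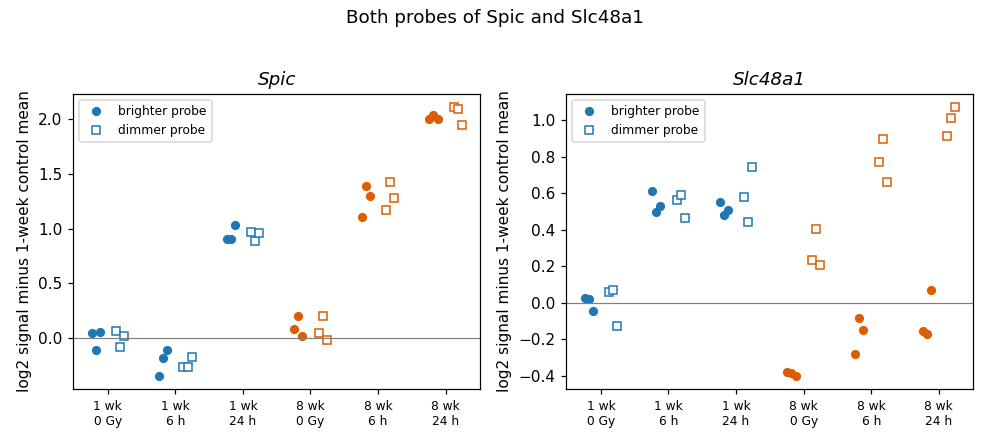
Log2 signal of the brighter (filled circles) and dimmer (open squares) probe of Spic and Slc48a1, each relative to its own mean in 1-week controls, with 1 point per array, blue for 1 week and orange for 8 weeks. Both Spic probes move together, while those of Slc48a1 part in the 8-week groups, where controls lie below 0 on the brighter probe and above 0 on the dimmer one.

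Did the response to irradiation differ with age? The difference between the ages was tested directly, as the 8-week change minus the 1-week change. At 6 h 4 of 9 genes had a higher and 1 a lower change at 8 weeks, where 18.6% of tested genes were called (10.5% higher, 8.09% lower). Hmox1 differed most, by 1.48 ± 0.12 (adjusted p = 2.17e-06), then Spic by 1.38 ± 0.11 (adjusted p = 1.71e-06) and Cd163 by 0.81 ± 0.22 (adjusted p = 0.0183). Slc40a1 differed by 0.28 ± 0.09 (adjusted p = 0.0388). Slc48a1 rose less at 8 weeks, by -0.33 ± 0.09 on its brighter probe (adjusted p = 0.0192), while its dimmer probe gave -0.04 (adjusted p = 0.832). For the other 4 genes the difference did not pass the test. Its 95% intervals were -0.26 to 0.51 for Blvrb, -0.27 to 0.41 for Slc11a1, -0.24 to 0.09 for Fth1 and -0.20 to 0.30 for Hp.

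With slide as a block, 3 listed genes were called in this 6 h test, and Slc40a1 (0.24) and Slc48a1 (-0.30) were not. The Slc40a1 call also ended without any 1 of 8 arrays (0.22 to 0.30), namely 1-week control replicates 1 and 3, 1-week 6 h replicates 2 and 3, 8-week control replicates 2 and 3 and 8-week 6 h replicates 2 and 3. It ended with quantile scaling too (0.25), and without the filter on dim genes, without the intensity trend and on the authors' deposited matrix (0.28 each). Cd163 (0.68) and Slc48a1 (-0.30) lost their calls without 1-week 6 h replicate 1, and Cd163 also with a model-based background correction (0.49).

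At 24 h 4 of 9 genes had a higher change at 8 weeks and none a lower one, where 42.1% of tested genes were called (28.5% higher, 13.5% lower). By size these were Spic (0.97 ± 0.11, adjusted p = 9.37e-06), Cd163 (0.69 ± 0.22, adjusted p = 0.0184), Hmox1 (0.37 ± 0.12, adjusted p = 0.024) and Slc40a1 (0.24 ± 0.09, adjusted p = 0.0402). The median over all tested genes in this test was 0.11. Only the Spic call held in all settings tried here. Hmox1 was not called without 1-week control replicate 2 (0.32), 1-week 24 h replicate 2 (0.35), 8-week control replicate 3 (0.26) or 8-week 24 h replicate 3 (0.32), nor with quantile scaling (0.25), a percentile taken over probes well above background on all arrays (0.32) or a model-based background correction (0.13). Cd163 lost its call without 1-week 24 h replicate 2 (0.58). For Slc40a1 13 settings ended the call, 8 of them the loss of 1 array (1-week control replicates 1 and 3, 1-week 24 h replicates 1 and 3, 8-week control replicates 2 and 3, and 8-week 24 h replicates 2 and 3, with values from 0.18 to 0.25), and quantile scaling gave 0.10. Slc48a1 stood at -0.21 (adjusted p = 0.0681) on its brighter probe and at 0.13 (adjusted p = 0.405) on its dimmer one. The brighter one was called without 8-week 24 h replicate 3 (-0.29) or 8-week 6 h replicate 1 (-0.21), and with quantile scaling (-0.32), the other percentile (-0.27) or a model-based background correction (-0.26). The remaining intervals were -0.52 to 0.26 for Blvrb, -0.34 to 0.34 for Slc11a1, -0.19 to 0.14 for Fth1 and -0.16 to 0.35 for Hp.

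**Figure D3:**
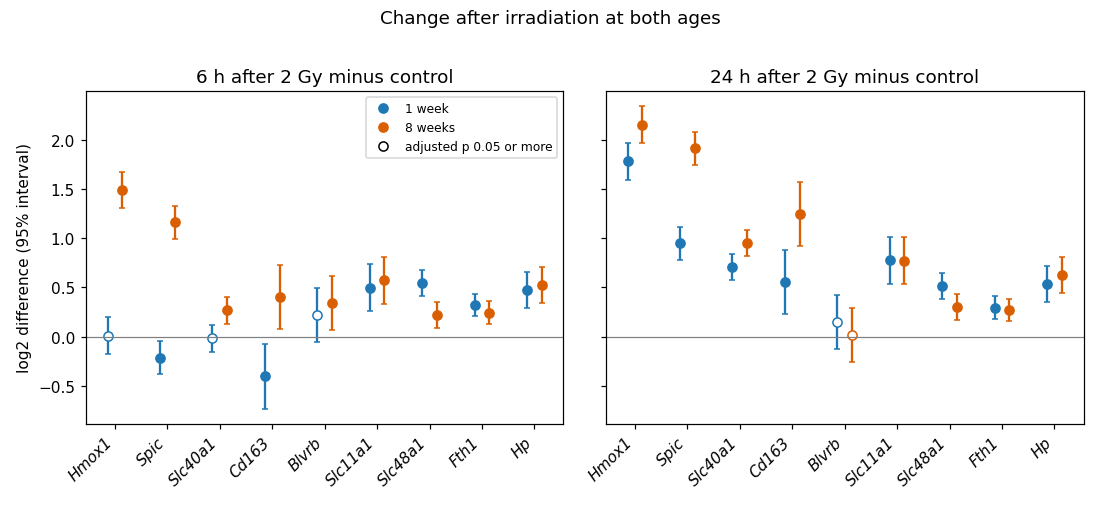
Log2 difference from the control of the same age (vertical axis) for the 9 genes at 6 h (left) and 24 h (right), in blue for 1 week and orange for 8 weeks; bars are 95% intervals and open points have an adjusted p of 0.05 or more. At 6 h Hmox1 stands at 0.01 at 1 week and 1.49 at 8 weeks, while Hp stands at 0.47 and 0.53.

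In unirradiated marrow, 5 of 9 genes were higher and 2 lower at 8 weeks than at 1 week, where 64.9% of all tested genes were called (27.4% higher, 37.5% lower). Cd163 was 9.5-fold higher (3.25 ± 0.15, adjusted p = 4.98e-11), rank 13 from the top among the tested genes. Its signal was low at 1 week, with raw intensity of 60.9 to 191.4 on the 1-week arrays against 1178 to 2517 at 8 weeks. Over the other settings tried, this Cd163 difference ran from 2.68 to 3.30. Hmox1 was 1.1 ± 0.09 higher (2.14-fold, adjusted p = 2.21e-08) and Hp 0.97 ± 0.08 higher (1.95-fold, adjusted p = 6.19e-08). Slc11a1 (0.52, adjusted p = 7.2e-04) and Slc40a1 (0.43, adjusted p = 2.01e-05) were higher by less. Blvrb was lower (-0.45 ± 0.13, adjusted p = 0.00571), and Slc48a1 was lower on its brighter probe only. Spic differed by 0.10 (adjusted p = 0.265, 95% interval -0.06 to 0.27) and Fth1 by -0.09 (adjusted p = 0.163, 95% interval -0.20 to 0.03).

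From 6 h to 24 h, 4 of 9 genes rose at 1 week, where 36.2% of tested genes were called (18.6% higher, 17.6% lower). They were Hmox1 (1.77), Spic (1.16), Cd163 (0.96) and Slc40a1 (0.73). At 8 weeks the same 4 genes rose, by 0.67, 0.75, 0.85 and 0.68, and Blvrb fell, where 49.4% of genes were called (33% higher, 16.5% lower). Slc11a1 differed by 0.28 between the times at 1 week and missed the threshold (adjusted p = 0.0674), but was called with slide as a block (0.38), and without 1-week control replicate 1 (0.28), 1-week 6 h replicate 1 (0.35) or 8-week 6 h replicate 3 (0.28). For Fth1, Hp and the brighter probe of Slc48a1, the 24 h minus 6 h difference lay between -0.03 and 0.10 at both ages and was not called. The dimmer Slc48a1 probe gave 0.05 at 1 week (adjusted p = 0.701) and rose by 0.22 at 8 weeks (adjusted p = 0.0384).

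Across the 18 arrays, levels of Hmox1, Spic and Slc40a1 followed one another most closely, with Pearson r of 0.96 for Hmox1 with Spic, and 0.95 for each of them with Slc40a1. Cd163 followed Hp (r = 0.91) and ran opposite to Blvrb (-0.76). With Slc48a1 it gave -0.73 on the brighter probe of that gene and 0.57 on the dimmer one, so no direction is given for this pair. These values rest on differences between the 6 groups. Within groups, deviations of Hmox1 and Spic from their group means correlated at only 0.21, against 0.81 for Slc48a1 with Fth1 (0.59 on the dimmer probe) and 0.68 for Slc11a1 with Hp. The tested genes nearest to Spic over the 18 arrays were Slc7a8 (0.98), the costimulatory ligand Cd86 (0.98) and the growth factor Igf1 (0.97). Nearest to Slc40a1 were Cd86 (0.96), Extl2 (0.95) and Vat1 (0.95), and nearest to Hmox1 were Noxred1 (0.96), Spic (0.96) and B3galnt1 (0.96). For Cd163 they were Oosp1 (0.99), the endotoxin receptor Tlr4 (0.99) and Degs2 (0.99), for Hp Gpsm3, Mocos and Gramd1b (0.99 each), and for Slc11a1 Cyp4f18, Sirpa and Csf2rb (0.98 each). Blvrb lay nearest to the water channel Aqp1 (0.94), the quinone reductase Nqo1 (0.94) and Pir (0.93). Slc48a1, on its brighter probe, lay nearest to Trib3 (0.97), Fzd5 (0.96) and Pim1 (0.96), and Fth1 to Isg20 (0.94), Snx21 (0.93) and Bcl2a1b (0.92).

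Other genes of haem and iron handling were read from a list of 32, of which 29 were tested and Hpx, Cybrd1 and Hamp were too dim. After irradiation 8 rose and 3 fell at 6 h and 13 rose and 4 fell at 24 h at 1 week. At 8 weeks 15 rose and 2 fell at 6 h, and 17 rose and 3 fell at 24 h. Thus 11, 17, 17 and 20 of 29 were called, where 51.8%, 36%, 46% and 57.8% of all tested genes were. The list's medians were 0.06, 0.23, 0.25 and 0.26 in that order, beside 0.00, -0.01, 0.02 and 0.12 over all tested genes. At 6 h Ncoa4, Lrp1, Abcg2, Bach1, Nfe2l2, Nr1h3 and Slc25a37 rose at both ages. At 24 h Blvra, Ftl1, Trf, Ncoa4, Lrp1, Flvcr1, Hfe, Nfe2l2 and Nr1h3 did, and Slc11a2 and Pcbp2 fell at both.

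Nr1h3 (LXR alpha), a nuclear receptor of macrophages, had the smallest adjusted p of the list for a difference between the ages at both times. Its log2 signal was -0.56 to -0.19 in 1-week controls and -0.02 to 0.17 at 24 h, and it went from -0.17 to -0.03 in 8-week controls to 1.67 to 1.92 at 24 h. All irradiated 8-week arrays, from 1.28 upward, lay far above the 1-week arrays. Its changes were 0.30 and 0.50 at 1 week and 1.52 and 1.89 at 8 weeks, and the differences between the ages were 1.22 at 6 h (adjusted p = 6.42e-05) and 1.39 at 24 h (adjusted p = 4.17e-06). The 1-week change at 6 h was not called without 1-week control replicate 2 (0.23, adjusted p = 0.098). Ftl1, the ferritin light chain, followed the same order, with 0.07 (adjusted p = 0.512) and 0.41 at 1 week and 0.52 and 1.06 at 8 weeks, and its differences between the ages were 0.45 and 0.65 (adjusted p = 0.015 and 4.44e-04). Ncoa4, which delivers ferritin for breakdown, rose by 0.62, 0.65, 0.62 and 0.52 in the 4 comparisons, and its differences between the ages did not pass the test (adjusted p = 0.983 and 0.205).

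Bach1, the haem-sensing repressor of Hmox1 and Spic, rose by 0.78 (adjusted p = 9.85e-05) and 0.52 (adjusted p = 0.00444) at 1 week and by 0.34 at 6 h at 8 weeks (adjusted p = 0.0407), and stood at 0.06 at 24 h there (adjusted p = 0.705). Hmox2, the constitutive haem oxygenase, fell by 0.41 on the log2 scale at 6 h and fell by 0.31 at 24 h at 1 week, while at 8 weeks it rose by 0.31 at 24 h. Blvra, the main biliverdin reductase, rose at 24 h by 0.23 at 1 week and by 0.69 at 8 weeks, and its 1-week call was lost without 1-week control replicate 2 (0.20, adjusted p = 0.0522). Of 11 other genes known to be controlled by Nrf2 or Bach1, 6 rose and 1 fell at 6 h and 7 rose at 24 h at 1 week, and at 8 weeks 7 rose and 2 fell, then 7 rose and 1 fell. The shares of all tested genes called were the 51.8%, 36%, 46% and 57.8% given above. The medians of these 11 genes were 0.41, 0.36, 0.41 and 0.53, beside 0.00, -0.01, 0.02 and 0.12 over all tested genes. G6pdx rose in all 4 comparisons, by 0.41, 0.51, 0.52 and 0.81. At 6 h Nqo1, Gclm, Srxn1 and Sqstm1 also rose at both ages. Prdx1 fell at both ages at that time, and Gclc rose at 1 week and fell at 8 weeks. At 24 h Srxn1, Txnrd1, Gsr and Sqstm1 rose at both ages beside G6pdx.

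**Figure D4:**
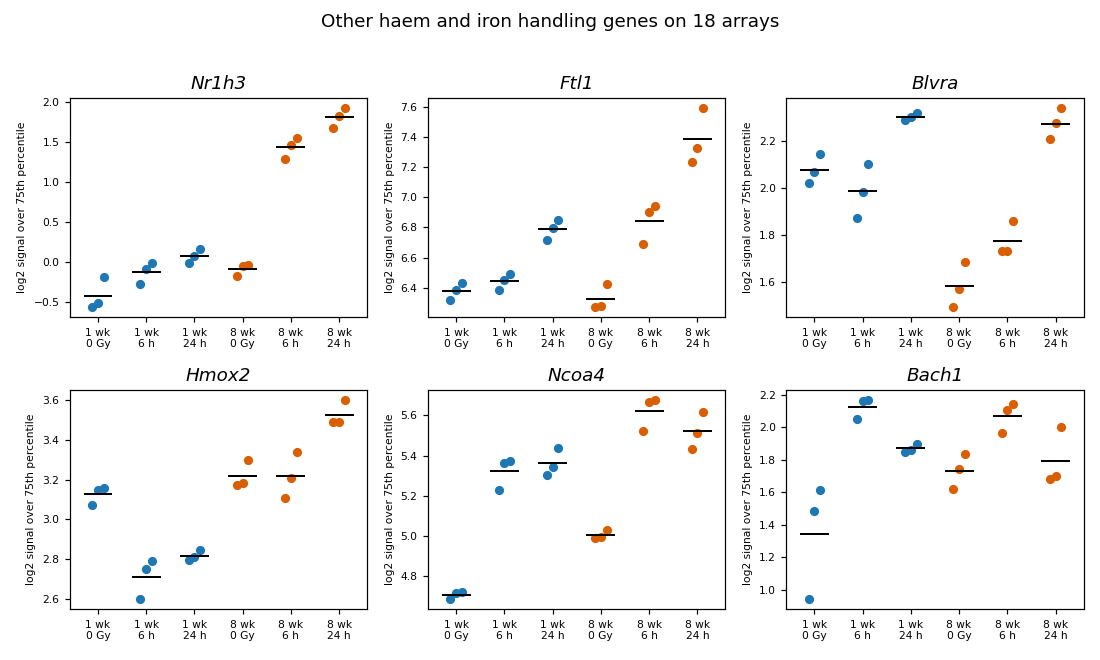
Log2 signal over the array's 75th percentile of 6 further haem and iron handling genes in the 6 groups, with 1 point per array, bars for group means, and blue for 1 week and orange for 8 weeks. Nr1h3 separates the irradiated 8-week arrays from all others, Hmox2 is lower after irradiation at 1 week and higher at 24 h at 8 weeks, and Ncoa4 is above control in all irradiated groups.

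Markers of other cells moved with these comparisons. Their counts stand against all tested genes, of which 25.5%, 18.4%, 23.9% and 38.3% were called higher and 26.3%, 17.6%, 22.1% and 19.5% lower at 6 h and 24 h at 1 week and then at 8 weeks. Of 17 resident macrophage markers (the listed genes left out) 16 were tested. At 6 h 2 rose and 12 fell at 1 week and 13 rose at 8 weeks, and at 24 h 13 rose at 1 week and 15 at 8 weeks. Their median differences were -0.88 and 0.44 at 1 week and 0.50 and 1.39 at 8 weeks. The log2 of their summed signal was 4.90 to 5.19 in 1-week controls, 4.40 to 4.64 at 6 h and 5.61 to 5.65 at 24 h. In 8-week mice it was 5.56 to 5.80, 6.25 to 6.32 and 7.15 to 7.29, so that these ranges, like the values of Spic, were lowest at 6 h at 1 week and highest at 24 h at 8 weeks. The complement gene C1qc fell by 1.59 and Fcna by 1.42 on the log2 scale at 6 h at 1 week, and the scavenger receptor Marco rose by 1.88 at 6 h and 3.32 at 24 h at 8 weeks. Without 1-week control replicate 2, none rose and 11 fell at 6 h and 9 rose at 24 h at 1 week. In the tests of age differences, 14 of 16 had a higher change at 8 weeks at 6 h and 13 at 24 h, where 10.5% and 28.5% of all tested genes had one. The part of macrophage RNA content in the changes of the listed genes was not tested.

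All 13 late neutrophil markers rose at both times at 1 week and at 24 h at 8 weeks, and 12 rose at 6 h there, with medians of 0.70, 0.84, 0.52 and 0.62. Their summed log2 level was 10.22 to 10.44 in 1-week controls and 10.79 to 11.06 on the irradiated arrays, and 11.02 to 11.13 and 11.45 to 11.59 at 8 weeks. Like those of Hp and Slc11a1, these ranges were lowest in 1-week controls and highest on the irradiated 8-week arrays. For the neutrophil sum and Hp, 8-week controls lay above the 1-week 24 h arrays. For Slc11a1 they lay below, at 2.25 to 2.44 against 2.54 to 2.66. Of the neutrophil markers, 12 of 13 were higher at 8 weeks in controls as well, where 27.4% of all tested genes were. Of 16 erythroid markers tested, 13 and 11 rose at 1 week, 11 rose and 1 fell at 6 h at 8 weeks, and 3 rose and 8 fell at 24 h. In controls 1 was higher and 11 lower at 8 weeks, as Blvrb was, where 37.5% of all tested genes were lower. Summed erythroid levels were 11.40 to 11.59 in 1-week controls and 11.36 to 11.42 in 8-week controls. After irradiation they were 11.88 to 12.12 at 6 h and 11.80 to 11.95 at 24 h at 1 week. At 8 weeks they were 11.70 to 11.81 and 11.65 to 11.74. The 8-week sum at 24 h thus lay above the controls, although more markers fell than rose. The part of neutrophil and erythroid RNA in the values of Hp, Slc11a1 and Blvrb was not tested.

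B-cell precursor markers fell after irradiation at both ages. Of 9 tested, 8 fell at each time at 1 week and 9 at each time at 8 weeks, with medians of -1.44, -1.59, -1.54 and -1.92. The log2 of their summed signal was 8.13 to 8.32 in 1-week controls, 6.65 to 6.78 at 6 h and 6.15 to 6.26 at 24 h. At 8 weeks it was 8.22 to 8.32, then 6.49 to 6.76, then 6.20 to 6.29, so the ranges of irradiated and control arrays lay far apart at both ages. The 5 early granulocyte markers tested, all 5 of them higher at 8 weeks in controls, moved differently at the 2 ages. At 1 week 5 fell at 6 h and 3 at 24 h, with medians of -0.61 and -0.35. At 8 weeks their 6 h differences lay between -0.24 and 0.10, with adjusted p of at least 0.122 in the limma fit, and 5 rose at 24 h (median 0.90). The change was higher at 8 weeks for 4 of them at 6 h and for 5 at 24 h. Of 8 monocyte markers, 5 rose and 1 fell at each time at 1 week, 3 rose and 1 fell at 6 h at 8 weeks, and 3 rose and 3 fell at 24 h. The part of these cells' RNA in the rises of the listed genes was not tested.

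**Figure D5:**
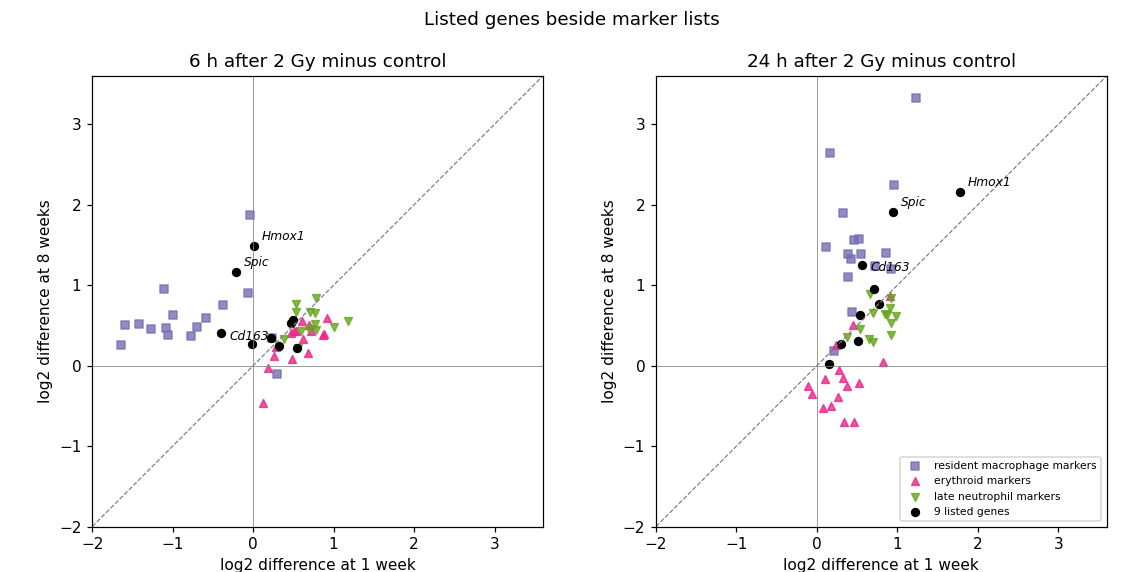
Log2 difference from control at 1 week (horizontal) and 8 weeks (vertical), at 6 h (left) and 24 h (right), with 1 point per gene for the 9 listed genes and the resident macrophage, erythroid and late neutrophil markers; the dashed line marks equal change at both ages. At 6 h Hmox1 (0.01 and 1.49), Spic (-0.21 and 1.16) and Cd163 (-0.40 and 0.40) lie above the line with most macrophage markers, and the neutrophil markers lie near it.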

How the data were processed

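Whole marrow RNA of 18 samples was hybridised to one-colour Agilent mouse arrays. The deposited array files hold the intensity of each spot, background-subtracted by Agilent Feature Extraction, per the file headers, with no scaling across arrays. The labels give its version as 11.5.1 and the headers as 9.5.1.1. Spot flags (well above background, saturated, outlier) are other columns of the deposited files. The deposited series matrix holds log2 values of the same arrays, in the same direction. Rebuilding them by percentile shift and centring each probe on its median gave r of at least 0.999 on every array, so they served as an alternative. The median of a deposited column ran from -0.17 to 0.25.

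Control and outlier spots were left out, log2 signal was averaged per probe, and the 75th percentile of each array over 41174 probes (raw intensity 461.5 to 727.6) was subtracted. A probe counted as well above background where at least 0.5 of its spots did. Probes were given a mouse symbol by matching their accession to RefSeq transcripts, which succeeded for 24844 probes and not for 16330. For each of the 17178 genes named in this way the brightest probe was used, and 5955 genes have several. Genes well above background on all 3 arrays of any group were tested, which left out 5286 dim genes and 8 with an outlier spot. Limma 3.58.1 in R 4.3.3 fitted 1 mean per group with an intensity trend (12 residual and 4.33 prior degrees of freedom) for 9 comparisons, 2 of them differences between the ages, with two-sided p-values adjusted within each comparison. The script was tested on simulated data. Precision is limited by 3 arrays a group, and where arrays are not separate mice the p-values measure only the spread between samples.

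The labels do not say that a replicate number marks shared animals or a batch, so the main fit used no replicate block. Deviations from group means correlated at r from -0.27 to 0.32 between arrays of the same number (45 pairs, 9 over 0.1). Pairs of different numbers were not set beside them. Slide and replicate number were used as blocks only in alternative fits. The members, lists and motifs were chosen with earlier results of these data known. The named genes are the 9 listed genes, up to 4 of each pathway list per comparison by adjusted p and those called at both ages, up to 2 per marker list, and the 3 genes of highest r to each listed gene.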

Additional observations from a re-analysis of the deposited data

Results flagged for a closer look

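These results were flagged because their response to irradiation was called as different between the ages. The difference is the 8-week change minus the 1-week change on the log2 scale. At 6 h it was 1.48 for Hmox1, 1.38 for Spic, 0.81 for Cd163 and 0.28 for Slc40a1. For Slc48a1 it was -0.33 on the brighter probe, while the dimmer probe gave -0.04 and was not called. At 24 h it was 0.37 for Hmox1, 0.97 for Spic, 0.69 for Cd163 and 0.24 for Slc40a1. Each was tested as an interaction in the limma fit, with adjusted p from 1.71e-06 to 0.0402. Of all tested genes, 18.6% were called in this test at 6 h and 42.1% at 24 h. The Slc40a1 call ended in 13 settings at each time.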

How the results depend on the processing

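Among 81 gene results (9 genes in 9 comparisons), 73 kept their call and direction with quantile scaling, 77 with the percentile taken over probes well above background on all arrays, 73 with normexp background correction on median signals (chosen after seeing the data, in place of mean signals), 75 without the filter on dim genes, 79 with the mean of all probes, 76 with slide as a block, 76 without the intensity trend and 76 with the authors' series matrix values. Values not called in either setting count as kept, whatever their sign. Directions turned in 2 results. Fth1 at 24 h minus 6 h at 8 weeks was -0.14 and called with quantile scaling, and Slc48a1 between the ages in controls was 0.28 on its other probe. The cause was not tested.

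With slide as a block, 3 listed genes and 1370 of all tested genes were called in the 6 h age difference, against 5 and 2210 without the block. Leaving out each array in turn gave 3 to 5 listed genes in the 6 h and 2 to 5 in the 24 h age difference. The lowest counts came without 1-week 6 h replicate 1, and without 1-week 24 h replicate 2 or 8-week control replicate 3. With the replicate number as a block, 81 of 81 gene results kept their call, and the listed genes called numbered 6, 8, 9 and 8 at 6 h and 24 h at 1 week and then at 8 weeks, as without it. Within slides single arrays are compared, so no test was made there.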
